A study of Helianthemum marifolium subsp. andalusicum and Helianthemum marifolium subsp. marifolium and Helianthemum marifolium subsp. molle with 16 samples.

Results

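Leaves of molle and origanifolium, which the series treats as subspecies of the rockrose Helianthemum marifolium, were compared through their poly-A transcripts. The 4 molle and the 4 origanifolium libraries were taken by the names of their columns, out of 16 libraries in the series. By a code in their titles the molle libraries form the pairs 22 with 25 and 27 with 29, and the origanifolium libraries the pairs 31 with 33 and 38 with 39. The labels leave the meaning of the code unstated, and the organism label of the origanifolium libraries reads Helianthemum origanifolium, without a subspecies rank. All 8 libraries came from adult leaves of plants raised from scarified seed in a greenhouse at 22 °C by night and 25 °C by day under natural daylight, taken at apical nodes 3 to 5 on day 446 after sowing. The labels name no treatment and no genotype beyond the taxon. Nothing in them ties each library to a plant of its own, and the tests below therefore use a spread among libraries that may be technical in part.

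Helianthemum species are small shrubs of dry, open ground around the Mediterranean, and several form complexes of closely related taxa that differ in leaf form and hair cover. With no reference genome in use, a transcriptome of such a plant is assembled from the reads themselves, and reads are then counted per cluster of assembled transcripts, each cluster standing for a gene, a part of one or an allele. A cluster that has counts in 1 taxon and none in its relative can be a gene not expressed there, a gene not present there, or an allele whose reads were counted elsewhere, and a table of counts does not tell these apart. In bulk leaf tissue, fewer cells of a type and less RNA per cell cannot be told apart either. No functional gene names come with the clusters, so neither the leaf label nor any pathway could be checked against marker genes, and clusters are described by their levels. Levels are in CPM, counts scaled to the total of the library, and are not divided by transcript length.

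The count table held 100462 clusters, of which 35120 had 10 or more counts in at least 4 of the 8 libraries and were tested. Totals ran from 22170314 counts in origanifolium 31 to 34121011 in molle 22, and their mean was 30764839 ± 3492057 for molle and 26232772 ± 4221855 for origanifolium (SD over 4 libraries). The tested clusters held between 98.1% and 99.0% of the counts of a library. A count of 0 over all 4 libraries of a side allows up to 0.0244 CPM in molle and up to 0.0286 CPM in origanifolium, taking 3 counts as the limit and covering counting error only.

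The 8 libraries fell into the 2 taxa. The distance between a molle and an origanifolium library, taken over the tested clusters as the root of the mean squared difference in log2 CPM, was 2.09 ± 0.0329 (SD over 16 pairs, which share libraries) and ran from 2.04 to 2.15. Within molle it was 1.72 ± 0.0579 and within origanifolium 1.64 ± 0.0642 (SD over 6 pairs each), and the largest distance within a taxon, 1.77, was below the smallest between them. The excess of the between-taxon distance was 0.414, or 0.186 over clusters with 10 or more counts in all 8 libraries. It was the largest among the 35 ways of splitting the libraries 4 against 4 (one-sided p = 0.0286 by an exact permutation test, which can give no smaller value). That test treats the 8 libraries as exchangeable and ignores their title codes. Splits that keep the libraries of a code together number only 3, and there the exact permutation p was 0.333, again the smallest possible. For all 8 libraries the nearest other library was the one of the same title code. Mean distances were 1.65 within codes and 1.75 between codes of molle, and 1.57 and 1.68 in origanifolium.

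Of the tested clusters, 27648 had a count in all 8 libraries and 34657 had counts on both sides. Over all clusters, tested or not, 5912 had 10 or more counts in the molle libraries together and 0 in origanifolium, and 11452 the reverse. Molle and origanifolium differed in 1582 clusters, which is 4.50% of those tested, with 771 (2.20%) higher in molle and 811 (2.31%) higher in origanifolium, at an adjusted p under 0.05 by the quasi-likelihood test of edgeR with Benjamini-Hochberg adjustment. The count was 4608 with DESeq2, 954 with all 16 libraries in the edgeR fit and 654 with no filter on low counts. Over all tested clusters the median log2 difference was -0.0139. The 4 molle libraries all lay above the 4 origanifolium libraries in 2316 clusters (6.59%), and the reverse held in 3139 (8.94%). These include all 220 and 243 tested clusters at 0 in 1 taxon, which the filter forces apart. Among the 34657 clusters with counts on both sides the numbers were 2096 and 2896, or 2459 and 2668 on TMM-scaled CPM. Some of these, too, entered the test through 1 side alone. Lack of overlap is not adjusted for the number of clusters, so these numbers are not comparable with the calls. Of the 1582 calls, 13 had libraries that overlap. The count of calls was lower in every fit without 1 library, and by how much varied with the library. It was 1202 without molle 22, 1032 without molle 25, 986 without molle 27 and 1130 without molle 29. Without an origanifolium library it was 900 (library 31), 995 (library 33), 887 (library 38) and 715 (library 39). In all, 563 clusters were called with all 8 libraries and in each of the 8 fits without 1 library, and 389 of these were also called by DESeq2, by limma voom with and without the title code as a random block, and in the fit of all 16 libraries. Of the 563 and 389 clusters, 319 and 211 had counts on both sides. The rest were at 0 in 1 taxon, where the filter itself forces a difference. Some of those with counts on both sides also passed the filter through 1 side alone. Of the 211, 134 had at least 1 CPM on the lower side. With the libraries of each code summed, 2 against 2, edgeR called 0 clusters, 5352 had an unadjusted p under 0.05, and the smallest adjusted p was 0.0954.

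**Figure D1:**
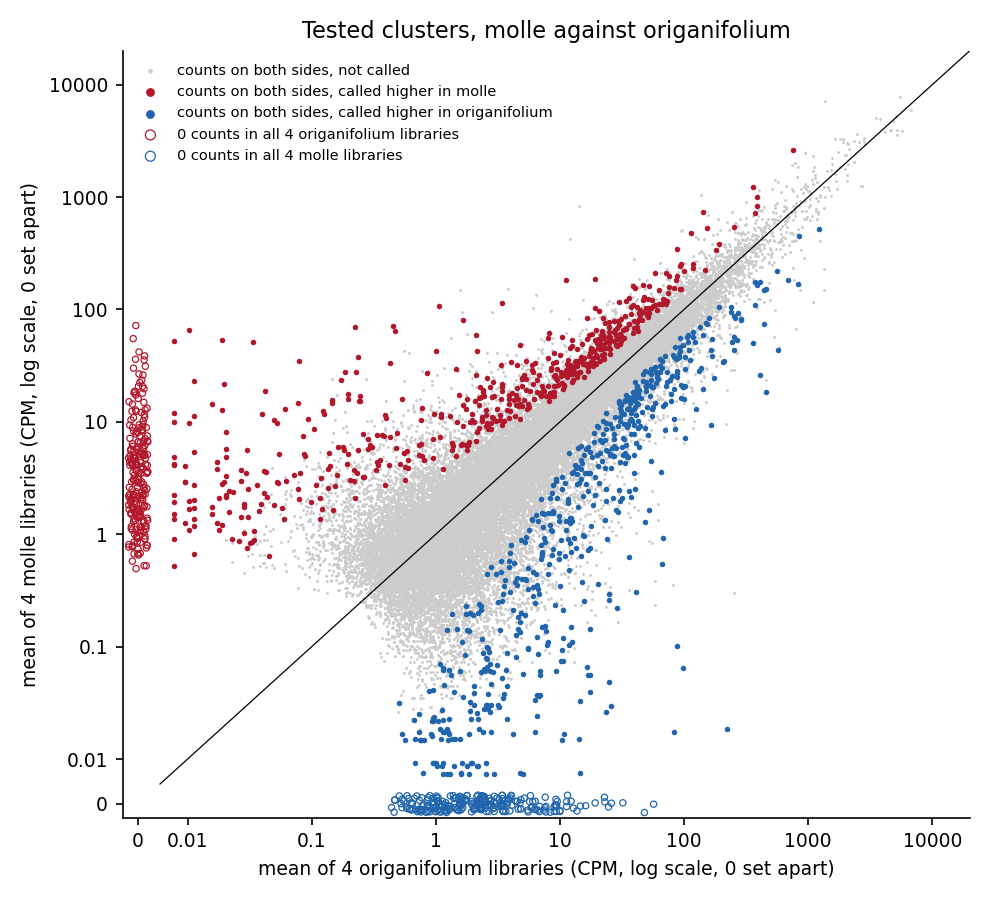
Each point is 1 of 35120 tested clusters, at the mean CPM of the 4 origanifolium libraries (horizontal, log scale) and of the 4 molle libraries (vertical, log scale), with means of 0 set apart beside the axis. Filled colours are the 1131 clusters with counts on both sides that passed the test, open circles the 463 clusters at 0 in all libraries of 1 taxon, and grey points the rest.

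Among clusters with counts on both sides, 1131 of 34657 (3.26%) differed, with 560 (1.62%) higher in molle and 571 (1.65%) higher in origanifolium (edgeR, adjusted p under 0.05). Some of these entered the test through 1 side alone: in 701 clusters all libraries of 1 taxon had 10 or more counts and no library of the other did, so that the filter itself favoured a difference, and 285 of them were called. Of the remaining 33956 clusters, 846 (2.49%) were called, 439 higher in molle and 407 higher in origanifolium. The differences higher in origanifolium had a median size of 2.84 on the log2 scale, with quartiles of 1.67 and 5.10. Those higher in molle had a median of 1.97, with quartiles of 1.26 and 4.49. Over all 34657 clusters the median size was 0.605 and the 90th percentile 2.26. By size, 98 of the 1131 were under 2-fold, 557 lay between 2-fold and 8-fold, 300 between 8-fold and 64-fold, and 176 were 64-fold or more. The test may limit the small ones: on simulated counts it called 0% of 2-fold and 20% of 4-fold changes. Only 200 of 35120 clusters were changed in that simulation and 61 were called. With fewer calls the adjusted limit was stricter there, so these shares do not measure the power of the real fit. In 688 of the called clusters the lower side still had a mean of at least 1 CPM, and there the median size was 1.57 on the log2 scale, with 60 clusters at 8-fold or more. Among these the medians lay closer together, at 1.75 for clusters higher in origanifolium and 1.43 for those higher in molle. At the other end, 149 called clusters had 1 to 3 counts on the lower side, 80 of them in molle and 69 in origanifolium, which is 149 of the 169 such clusters tested. They could pass the filter only through the side where they were high, and their fitted folds depend on the prior count. This count of 1131 was 662 without molle 25, 620 without molle 27, 744 without molle 29, 600 without origanifolium 31, 657 without origanifolium 33, 588 without origanifolium 38 and 453 without origanifolium 39.

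**Figure D2:**
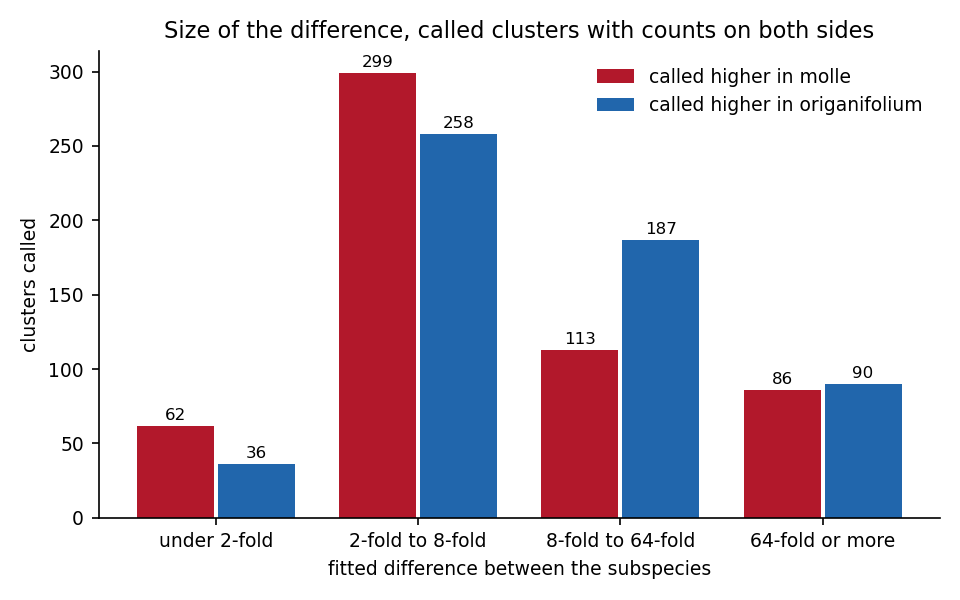
Bars give the number of called clusters with counts on both sides (vertical axis), by the size of the fitted difference and by the taxon in which the cluster was higher. Between 8-fold and 64-fold there were 187 clusters higher in origanifolium and 113 higher in molle, while under 2-fold there were 36 and 62. The bars include clusters with few counts on the lower side. With at least 1 CPM there, 35 clusters higher in origanifolium and 25 higher in molle differed by 8-fold or more.

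A difference of under 2-fold could be bounded for a minority of clusters. The 95% interval of the fitted log2 difference lay inside -1 to 1 for 6171 clusters, 17.8% of those with counts on both sides. The fit behind these intervals treats the 8 libraries as independent and ignores their title codes. The interval reached a median of 1.31 on the log2 scale to either side of the estimate. Precision was greater for clusters with a mean of at least 10 CPM, of which 5480 of 12711 (43.1%) were bounded in this way, and for those at 100 CPM or more it was 782 of 1691 (46.2%). For the remaining clusters that did not pass the test, the data neither show a difference nor bound it below 2-fold.

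The share of clusters called also moved with level. It was 1.82% of the clusters with counts on both sides and a mean under 1 CPM, 2.72% from 1 to 10 CPM, 4.73% from 10 to 100 CPM and 4.20% at 100 CPM or more. The last class, 1691 clusters, held between 52.0% and 60.4% of the counts of a library, and 71 of them were called, 32 higher in molle and 39 higher in origanifolium (edgeR, adjusted p under 0.05). Their differences had a median size of 1.48 on the log2 scale and ran from 0.684 to 13.3. The largest belonged to a cluster with 2 counts in molle, which passed the filter through origanifolium alone.

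The clusters described singly below were chosen by a rule: of the called clusters whose 4 libraries on 1 side all lay above the 4 of the other, with a mean of at least 1 CPM, the 3 with the smallest p and the 3 of the remaining with the highest level in their lowest library. Identifiers are printed for 4 of them. Each of the 24 clusters lost its call when the libraries of a title code were summed, and 17 of them in no other setting that was run. Among clusters with counts on both sides and higher in molle, the smallest p belonged to Cluster-3823.41156. It stood at 54.8, 63.7, 36.1 and 56.5 CPM in molle libraries 22, 25, 27 and 29, and at 0, 0, 0 and 0.0312 CPM in origanifolium libraries 31, 33, 38 and 39. All molle libraries were thus at a like level, while origanifolium had 1 count in all, in library 39. The ratio of the summed levels was 5466, with an exact 95% counting interval from 981 to 215918 (edgeR adjusted p = 0.000212). The cluster was tested only because every molle library held 10 or more counts, so its p describes that choice, as do those of the next cluster by p and of the 2620 nt transcript described further on. In andalusicum, which took no part in the choice, this cluster was at 33.7 ± 29.2 CPM and in marifolium at 5.83 ± 5.29 CPM (SD, n = 4 each), so it was present in all 12 libraries outside origanifolium.

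The second cluster by p had the same form, with 71.9, 83.9, 61.1 and 44.1 CPM in the molle libraries and 1 count in origanifolium, in library 33. Its ratio was 6833, with a counting interval from 1226 to 269906 (edgeR adjusted p = 0.000212). The next by p was expressed at a low level in every origanifolium library. This transcript of 1778 nt stood at 29.3, 28.0, 24.8 and 26.8 CPM in molle and at 0.947, 0.983, 0.456 and 0.999 CPM in origanifolium, with little spread on either side. The log2 difference was 5.08 ± 0.32 SE (edgeR adjusted p = 0.000673). Marifolium lay at 0.445 ± 0.177 CPM, and andalusicum was split, with 33.5 CPM in library 1 and 0.580 to 1.26 CPM in the other three.

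Of the 6 chosen clusters higher in molle with counts on both sides, the 3 chosen by level differed by smaller factors. One stood at 2356, 3749, 2302 and 2043 CPM in molle and at 723, 491, 795 and 999 CPM in origanifolium, a log2 difference of 1.88 ± 0.34 SE (edgeR adjusted p = 0.0203). Its lowest molle library was above its highest origanifolium library, and the mean levels of andalusicum (1710 ± 222 CPM) and marifolium (1713 ± 262 CPM) lay between the means of the compared taxa. A further cluster was at 1233 ± 494 CPM in molle and 356 ± 112 CPM in origanifolium, a log2 difference of 1.88 ± 0.38 SE (edgeR adjusted p = 0.0292). Among the molle libraries it was at 890 and 739 CPM in the pair 22 and 25, and at 1558 and 1747 CPM in the pair 27 and 29. The last of this set was at 830 ± 153 CPM in molle and 389 ± 52.6 CPM in origanifolium, a log2 difference of 1.17 ± 0.23 SE (edgeR adjusted p = 0.0260). All 3 lost their call in some of the fits without 1 library: the first without origanifolium 31 or 38, the second without molle 27 or 29 or origanifolium 33, 38 or 39, and the last without molle 25 or 27 or any 1 of the 4 origanifolium libraries. Without both libraries of a code, the first and the last lost it in all 4 such fits and the second in each but that without molle 22 and 25. The last also lost it in the fit of all 16 libraries (edgeR adjusted p = 0.0602, and 0.0608 to 0.205 in its other losses).

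Among clusters higher in origanifolium with counts on both sides, Cluster-3823.70092 had the smallest p. It stood at 28.8, 29.3, 39.1 and 30.1 CPM in origanifolium libraries 31, 33, 38 and 39 and at 2.99, 1.49, 2.07 and 1.91 CPM in molle libraries 22, 25, 27 and 29. The groups were far apart against their spread, with a log2 difference of -3.86 ± 0.27 SE for molle minus origanifolium and a 95% interval from -4.47 to -3.24 (edgeR adjusted p = 0.000715). Marifolium was at 24.3 ± 9.53 CPM and andalusicum at 0.820 ± 0.503 CPM. Each marifolium library, at 14.8 to 37.4 CPM, was above every andalusicum library, at 0.223 to 1.35 CPM.

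The next cluster by p, a transcript of 1669 nt, was even on both sides, with 22.3, 26.2, 18.3 and 26.4 CPM in origanifolium and 2.96, 2.49, 2.34 and 2.37 CPM in molle. Its log2 difference was -3.12 ± 0.24 SE (edgeR adjusted p = 0.000900). Here molle was the low one of the 4 taxa, since marifolium was at 30.3 ± 9.39 CPM and andalusicum at 17.3 ± 9.42 CPM, although andalusicum 1 with 3.50 CPM came near to molle. The next, a transcript of 2620 nt, was close to absent from molle, with 24.0, 21.7, 35.2 and 21.2 CPM in origanifolium and 0.0586, 0, 0.0601 and 0 CPM in molle (log2 difference -9.43 ± 0.73 SE, edgeR adjusted p = 0.000987). It had 0 counts in all andalusicum libraries, and in marifolium it was at 0 in library 12 and between 7.02 and 31.4 CPM in the other three.

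The abundant clusters higher in origanifolium differed by less. A transcript of 3305 nt stood at 1339, 1420, 1002 and 1112 CPM in origanifolium and at 771, 448, 462 and 376 CPM in molle (log2 difference -1.19 ± 0.25 SE, edgeR adjusted p = 0.0312). A second cluster was at 850 ± 95.3 CPM in origanifolium and 447 ± 71.7 CPM in molle (log2 difference -0.86 ± 0.19 SE, edgeR adjusted p = 0.0382). Another was at 832 ± 191 CPM in origanifolium and 170 ± 84.2 CPM in molle (log2 difference -2.23 ± 0.37 SE, edgeR adjusted p = 0.0155). Calls on the first were lost without any 1 library but molle 22, and on the second without any 1 of the 8 libraries, while the last of them kept its call in all 8 of these fits. In the fit of all 16 libraries none of the 3 was called, with edgeR adjusted p-values of 0.0553, 0.193 and 0.0501. Without both libraries of a code, the first and second lost the call in all 4 such fits, and the last in each but that without molle 22 and 25. The second also lost it with no filter on low counts (edgeR adjusted p = 0.0675).

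**Figure D3:**
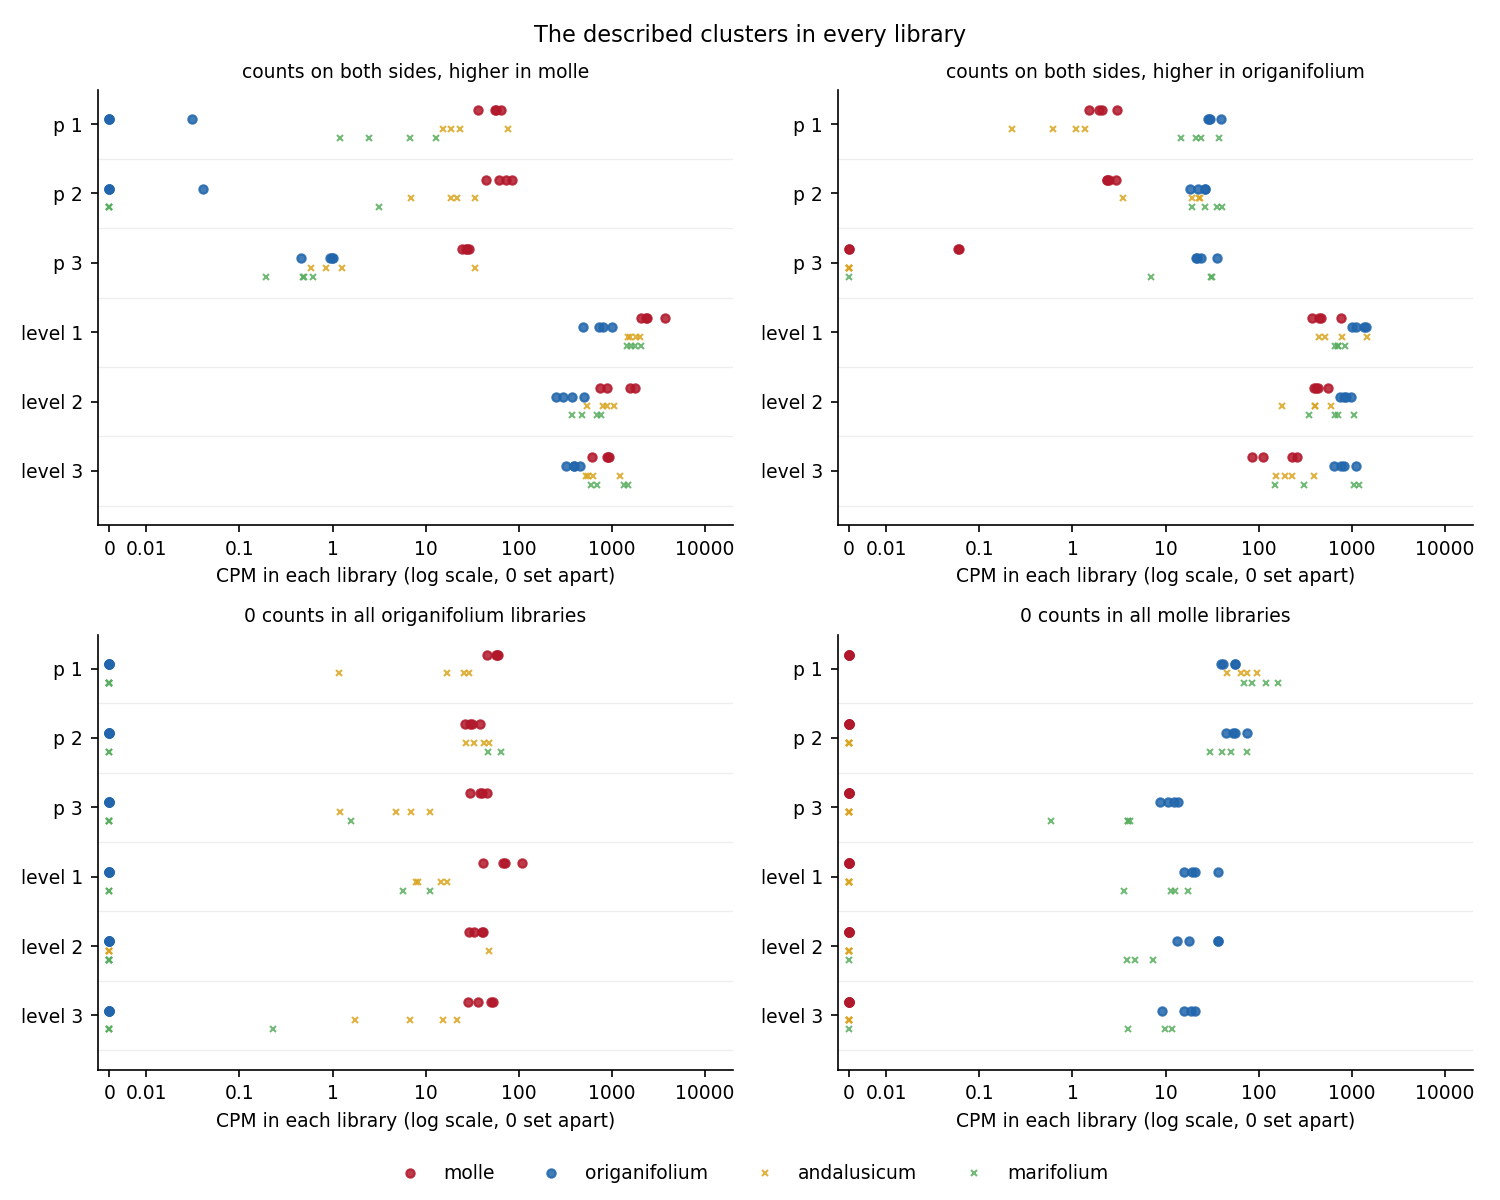
The 24 clusters chosen by the rule, 6 in each panel, with their CPM in every library on a log scale and values of 0 set apart at the left. Rows marked p were chosen by the smallest p and rows marked level by the highest level in the lowest library. Filled points are molle and origanifolium, crosses are andalusicum and marifolium, which took no part in the choice.

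Called clusters of high level and large difference were also examined, chosen after their values were seen. Of the 71 called clusters at 100 CPM or more, 5 differed by 8-fold or more, and 4 of these were higher in origanifolium. The largest difference rested on 3 libraries: this cluster stood at 287, 508, 96.6 and 0.468 CPM in origanifolium libraries 31, 33, 38 and 39, and had 2 counts in molle (edgeR adjusted p = 0.0161). The groups did not overlap, but origanifolium 39 was close to molle. Its adjusted p ran from 4.50e-09 with DESeq2 to 0.557 with limma voom, and with edgeR it reached 0.0839 without 1 library. A transcript of 795 nt stood at 232, 252, 1259 and 547 CPM in origanifolium and at 30.3, 51.7, 43.7 and 48.6 CPM in molle (log2 difference -3.64 ± 0.61 SE, edgeR adjusted p = 0.0159, at most 0.0465 without 1 library). Libraries 31 and 33, of 1 code, were lower than libraries 38 and 39. Another cluster stood at 425, 628, 660 and 97.3 CPM in origanifolium and at 37.2, 11.0, 21.7 and 3.97 CPM in molle (log2 difference -4.60 ± 0.81 SE, edgeR adjusted p = 0.0183, up to 0.0516 without 1 library). A transcript of 2563 nt stood at 121, 960, 197 and 369 CPM in origanifolium and at 8.03, 37.9, 17.5 and 40.8 CPM in molle (log2 difference -3.84 ± 0.79 SE, edgeR adjusted p = 0.0304, up to 0.0853 without 1 library). Both lost their call in at least 1 of the fits without a library, although their groups did not overlap. The cluster of these 5 that was higher in molle, a transcript of 838 nt, was at 121, 178, 318 and 131 CPM in molle and 13.3, 16.6, 17.5 and 30.0 CPM in origanifolium (log2 difference 3.37 ± 0.42 SE, edgeR adjusted p = 0.00603, at most 0.0219 without 1 library).

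Clusters at 0 in all libraries of 1 taxon were kept apart. There were 220 tested clusters with 0 counts in origanifolium and 243 with 0 counts in molle. The limit of 10 counts in 4 libraries means that each of them had 10 or more counts in every library of the other taxon, so they had to differ, and that 211 and 240 of them passed the test is a description of that choice. These 451 calls were 300 without origanifolium 31, 299 without origanifolium 38 and 262 without origanifolium 39. Their levels were low to moderate. Those found in molle had a median of 3.42 CPM (quartiles 1.55 and 6.66, highest 71.8), and 35 of 220 reached 10 CPM. Those found in origanifolium had a median of 2.18 CPM (quartiles 1.08 and 3.77, highest 56.8), and 17 of 243 reached 10 CPM. Set against 3 counts over the 4 libraries of the empty side, the median lower bound of the fold was 120 for clusters at 0 in origanifolium and 89.4 for clusters at 0 in molle. Together these clusters made up 0.139% ± 0.0153 of the counts of a molle library and 0.0955% ± 0.0130 of those of an origanifolium library (SD, n = 4 each).

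Expression was uneven among the libraries that held them. The highest library exceeded the lowest by a median factor of 3.54 for clusters at 0 in origanifolium and of 3.00 for clusters at 0 in molle. The factor was under 2 in 38 and 53 of them and over 10 in 25 and 16. At equal depth, with every library thinned to 22170314 counts, 190 clusters were at 0 in origanifolium and 213 at 0 in molle. The tested clusters were kept unchanged when a library was left out. At 0 in molle there were then 388 clusters without molle 22, 402 without molle 25, 373 without molle 27 and 414 without molle 29. Those at 0 in origanifolium numbered 299 without origanifolium 31, 293 without origanifolium 33, 305 without origanifolium 38 and 311 without origanifolium 39. Clusters with counts in a single molle library included 437 with counts in all 4 origanifolium libraries. A further 168 were at 0 in 1 origanifolium library, and so do not meet the limit of 10 counts in every library of that taxon.

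Among clusters at 0 in origanifolium, the one with the highest level in its lowest library, of those not already taken by p, was Cluster-3823.53544. It stood at 107, 71.5, 67.6 and 41.4 CPM in molle libraries 22, 25, 27 and 29 and at 0 in all 4 origanifolium libraries. By its mean of 71.8 ± 26.7 CPM it was at least 2510-fold higher in molle (edgeR adjusted p = 0.00106). Andalusicum held it at 11.9 ± 4.53 CPM in all 4 libraries, and marifolium at 5.76 and 11.1 CPM in libraries 12 and 15, of 1 code, and at 0 in libraries 17 and 18, of the other. The cluster with the smallest p was the more even one, at 58.0, 45.6, 56.1 and 60.2 CPM in molle, and at least 1922-fold higher there (edgeR adjusted p = 0.000673). It was at 0 in all marifolium libraries and at 1.16 to 28.9 CPM in andalusicum.

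Other clusters of this set showed that the missing taxon was not always alone. A transcript of 1332 nt stood at 31.2 ± 5.08 CPM in molle and at 37.5 ± 9.24 CPM in andalusicum, and in marifolium at 63.6 and 46.9 CPM in libraries 17 and 18 but at 0 in libraries 12 and 15. A transcript of 2033 nt stood at 32.8, 40.5, 41.5 and 29.0 CPM in molle and elsewhere had counts in andalusicum 6 alone, at 48.2 CPM, a level above that of any molle library. It lost its call in the fit of all 16 libraries. The remaining pair, at means of 38.6 ± 6.54 and 41.8 ± 11.6 CPM in molle, had lower levels in andalusicum (6.01 ± 4.13 and 11.5 ± 8.97 CPM) and counts in 1 marifolium library each.

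Among clusters at 0 in molle, Cluster-3823.76026 was named by the level of its lowest library. It stood at 19.0, 20.9, 36.5 and 15.6 CPM in origanifolium libraries 31, 33, 38 and 39 and at 0 in all 4 molle libraries. By its mean of 23.0 ± 9.28 CPM it was at least 944-fold higher in origanifolium (edgeR adjusted p = 0.00235). Marifolium held it in all 4 libraries at 11.3 ± 5.75 CPM and andalusicum in none. The cluster with the smallest p in this set was at 55.7, 41.2, 39.4 and 55.1 CPM in origanifolium which puts molle lower by at least 1963-fold (edgeR adjusted p = 0.000673), and both other taxa held it at higher mean levels, 70.3 ± 21.2 CPM in andalusicum and 108 ± 40.1 CPM in marifolium.

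The second by p stood at 54.9, 44.3, 75.4 and 52.5 CPM in origanifolium, at 49.0 ± 19.4 CPM in marifolium and at 0 in the 8 libraries of molle and andalusicum (molle lower by at least 2328-fold, edgeR adjusted p = 0.000774). Of the 6 chosen clusters at 0 in molle, 5 were also at 0 in all andalusicum libraries and were found in at least 3 marifolium libraries. The remaining 3 of these ran from 8.80 to 36.9 CPM in origanifolium and from 0 to 11.6 CPM in marifolium.

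The other taxa, which took no part in the comparison, held these clusters unequally. Of the 220 clusters at 0 in origanifolium, 126 (57.3%) had counts in andalusicum and none in marifolium, 4 (1.82%) the reverse, 61 had counts in both and 29 in neither. Of the 243 clusters at 0 in molle, 22 (9.05%) had counts in andalusicum and none in marifolium, 76 (31.3%) the reverse, 124 had counts in both and 21 in neither. Among all tested clusters with counts on both sides these shares were 2.41% and 1.25%. That set was not matched to the others for level. Counts in neither were also rarer there, at 0.424%, against 13.2% of clusters at 0 in origanifolium and 8.64% of those at 0 in molle. With 10 or more counts in all 4 libraries of 1 taxon and 0 in the other, 30 clusters at 0 in origanifolium went with andalusicum and 0 with marifolium, and 2 and 22 of the clusters at 0 in molle. By share of counts, the clusters at 0 in origanifolium made up 0.0654% to 0.0984% of an andalusicum library and 0.00290% to 0.0129% of a marifolium library. The clusters at 0 in molle made up 0.0192% to 0.0255% of an andalusicum library and 0.0446% to 0.0671% of a marifolium library. In both cases the libraries of andalusicum and marifolium did not overlap.

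**Figure D4:**
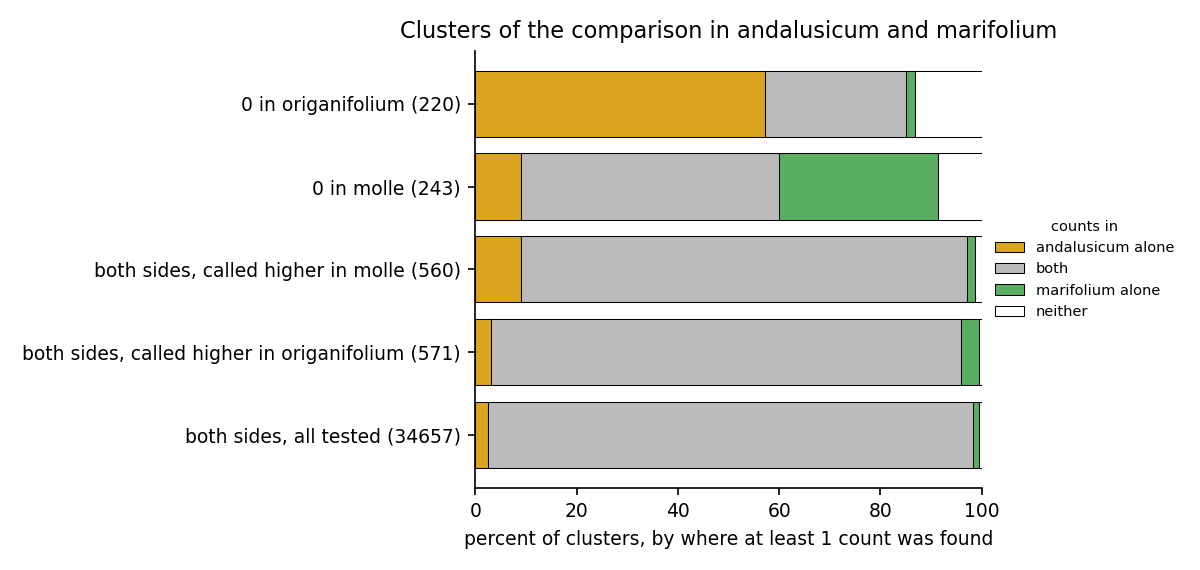
Stacked bars give the percent of clusters with at least 1 count in andalusicum alone, in marifolium alone, in both or in neither, for the classes of the comparison of molle with origanifolium. Clusters at 0 in origanifolium were held by andalusicum alone in 57.3% and clusters at 0 in molle by marifolium alone in 31.3%, against 2.41% and 1.25% of all tested clusters with counts on both sides. The sets were not matched for level.

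Presence in the other taxa was often partial. Among the clusters at 0 in origanifolium, 89 had andalusicum libraries at 0 beside others with 10 or more counts, and 60 had 10 or more counts in all 4. Among those at 0 in molle, 116 were mixed in this way among the marifolium libraries and 46 had 10 or more counts in all 4. For clusters with counts on both sides, the difference between andalusicum and marifolium, in mean log2(CPM + 0.1), had the same sign as that between molle and origanifolium in 780 of 1121 called clusters (69.6%), and in 18606 of 34510 tested clusters (53.9%). The share was 76.7% for clusters higher in molle and 62.7% for those higher in origanifolium, with clusters at a difference of 0 left out. The 2 differences share no library.

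Clusters could also be empty in part of a taxon. In 1455 tested clusters every origanifolium library had 10 or more counts while molle libraries were mixed, at least 1 at 0 and at least 1 with 10 or more. The reverse, with molle in full and origanifolium mixed, was seen in 812 clusters. Molle had the larger totals, and at equal depth the numbers were 1265 and 674, again with more clusters mixed in molle. Of the 1455 and 812 clusters, 17 (1.17%) and 20 (2.46%) passed the test, against 3.26% of all clusters with counts on both sides. In 98 clusters of each kind the mixture followed the title code, with both libraries of 1 code at 0 and 10 or more counts in both libraries of the other.

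Counts confined to single libraries were most frequent in origanifolium 38. It had 1442 clusters with 10 or more counts there and 0 in the other seven libraries, which made up 0.278% of its counts, against 595 to 1035 clusters in each of the others. Of these 1442 clusters, 1073 were also at 0 in andalusicum and marifolium. They cannot reach 4 libraries and so entered no test.

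Length and gene names were compared between the classes. A length in nt is part of the name for 35.5% of the tested clusters. It occurs only in transcript names that begin with Locus, not in those that begin with TRINITY. A cluster with several lengths was given the longest. Where given, the median was 1408 nt for all tested clusters (12453 of them), 705 nt for those at 0 in origanifolium (71) and 800 nt for those at 0 in molle (94). Called clusters with counts on both sides had medians of 1324 nt when higher in molle (224) and 1672 nt when higher in origanifolium (226). More than 1 transcript was listed for 3.57% of called clusters higher in molle and 7.18% of those higher in origanifolium. A longest length is therefore not taken over like numbers of transcripts. The gene or locus part of the transcript names joins clusters, directly or through a chain of names, that may stem from 1 gene. By this rule 21.9% of all tested clusters shared a name with another cluster, as did 12.3% of those at 0 in origanifolium and 18.1% of those at 0 in molle. A linked group of 1566 clusters was kept separate and counted as not sharing, so these shares are lower limits. Of the 27 such clusters at 0 in origanifolium, 20 belonged to a name that had counts in origanifolium from another cluster, and of the 44 at 0 in molle, 30 had such counts in molle. For the other 200 and 213 clusters the whole name was at 0 there. Of these, only the ones among the 27 and 44 share a name. The rest were counted as the only cluster of their name, so this repeats that the cluster was at 0.

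Of 2627 gene names with at least 2 tested clusters, 199 had a call and 26 had 2 or more. These names held 5682 tested clusters, of which 227 were called, against 1582 of all 35120 tested clusters. In 24 of these the calls went in 1 direction, and in 2 names they went in opposite directions. One of the 2 joins 19 clusters. The other has only 2 clusters, and their levels were exchanged between the taxa. The first cluster stood at 7.80, 12.9, 5.83 and 8.87 CPM in molle libraries 22, 25, 27 and 29 and at 50.6, 51.3, 39.5 and 27.3 CPM in origanifolium libraries 31, 33, 38 and 39 (log2 difference -2.16 ± 0.33 SE, edgeR adjusted p = 0.0120). The second stood at 44.6, 59.8, 55.9 and 67.1 CPM in molle and at 7.35, 6.26, 5.06 and 23.0 CPM in origanifolium (log2 difference 2.55 ± 0.49 SE, edgeR adjusted p = 0.0249). The groups did not overlap in either cluster, and origanifolium 39 was the least unequal of the 8. The second cluster lost its call without 1 library in at least 1 case, where its adjusted p reached 0.0680.

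Together the 2 clusters of this name stood at 65.7 ± 10.8 CPM in molle and 52.6 ± 6.41 CPM in origanifolium, and the second made up 86.5% of the sum in molle and 19.8% in origanifolium. In andalusicum the first was at 43.0 ± 3.43 CPM and the second at 5.39 ± 0.427 CPM, as in most origanifolium libraries. Marifolium was mixed: library 15 had 12.2 and 41.7 CPM, close to molle, and library 12 had 49.0 and 5.22 CPM. With DESeq2, 13 names had clusters called in opposite directions.

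**Figure D5:**
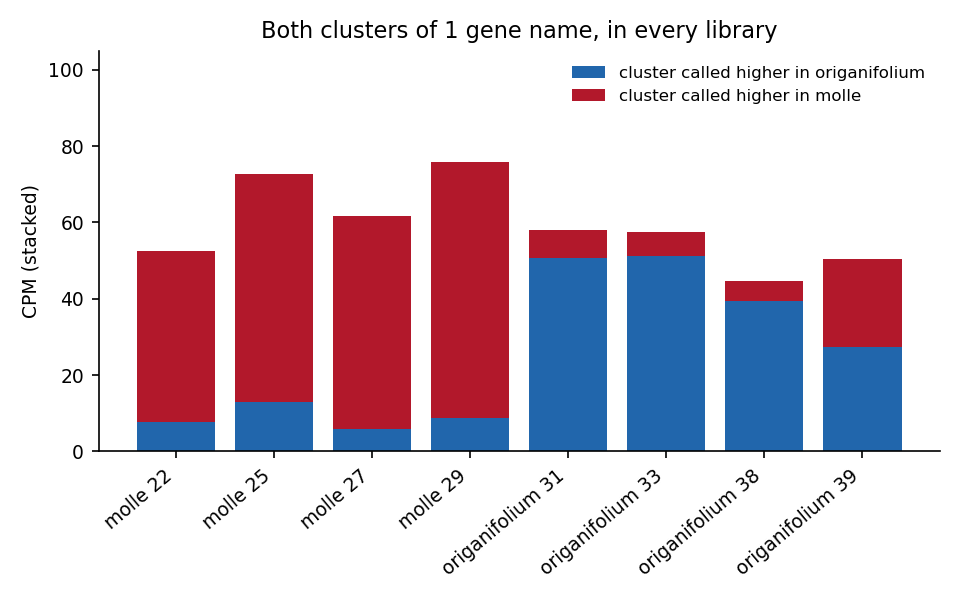
Stacked bars give the CPM of both clusters of 1 gene name in each of the 8 libraries. The sum averages 65.7 CPM in molle and 52.6 CPM in origanifolium, and the cluster called higher in molle makes up most of it in molle and the cluster called higher in origanifolium most of it in origanifolium, with origanifolium 39 nearest to an even split.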

How the data were processed

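Per the labels' protocols, RNA was extracted from leaves with a plant mini kit, poly-A RNA was selected on beads, and libraries were made with random hexamer priming. The authors deposited raw counts, whole numbers per cluster of assembled transcripts, with 1 column for each library, and a list that pairs clusters with transcript names, which holds no measurement. FastQC is named in the submitters' processing notes. Transcript names begin either with TRINITY, the name of an assembler, or with Locus, and only the latter include a length. Beyond these names the sources used here give no assembler, and they give no aligner, counter or strand setting. Antisense transcripts therefore cannot be told apart, and reads shared between paralogs or alleles may have been split. Every column was matched to its library, and 0 were left unmatched. Of 122009 listed transcripts, 18116 belong to no counted cluster and were not used.

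The 8 libraries were fitted in R 4.3.3 with edgeR 4.0.16 (TMM, glmQLFit, glmQLFTest), on clusters with 10 or more counts in at least 4 libraries, and p-values were adjusted over all of them. Common dispersion came to 0.572 (biological coefficient of variation 75.6%). No pair of libraries of a taxon agreed within sampling noise (chi-square per degree of freedom 75.4 to 132). On counts simulated for this comparison over 35120 clusters, 200 clusters were changed and 61 were called. Calls were made for 0% of 2-fold, 20% of 4-fold, 28% of 8-fold and 74% of 64-fold changes, and for 0 unchanged clusters. Fewer clusters passed there than in the real fit, so the adjusted limit was stricter. Alternatives used DESeq2 1.42.0, limma 3.58.1, other filters and scalings, and fits without single libraries. Clusters were joined where the gene or locus part of their transcript names was shared, with 1 group of 1566 linked clusters kept separate. Standard errors come from the F statistic. Intervals cover counting error only where they are called counting intervals. Folds against a side at 0 use a floor of 3 counts over its 4 libraries.

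The comparison, the classes and the rule for described clusters were chosen with earlier results of these data known. The rule took, in each of 4 classes, 3 clusters by smallest p and 3 by highest lowest library, and printed 2 identifiers that rose and 2 that fell.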

Additional observations from a re-analysis of the deposited data

Results flagged for a closer look

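In the described clusters, 34 groups of 4 libraries were examined for a library far from the other three, and 2 were found, where chance flags about 1 in 20 groups. In the transcript of 1778 nt that was higher in molle, origanifolium 38 stood at 0.456 CPM, below the other origanifolium libraries at 0.947 to 0.999 CPM. In Cluster-3823.70092, origanifolium 38 stood at 39.1 CPM, above the other origanifolium libraries at 28.8 to 30.1 CPM. Both clusters kept their call without origanifolium 38.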

How the results depend on the processing

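The 1582 calls became 4608 with DESeq2, 954 with all 16 libraries in the fit, 654 with no filter on low counts and 0 with the libraries of each code summed. Calls among clusters with counts on both sides (1131) became 4148, 703, 390 and 0. Calls among clusters at 0 in 1 taxon (451) became 251, 264 and 0 under the last 3 settings and 216 with at least 1 CPM in 4 libraries. Without 1 library the 3 counts ran from 715 to 1202, from 453 to 804 and from 262 to 398. Leaving out both libraries of a code, an alternative chosen after seeing the data, gave 328, 219 and 109 without origanifolium 31 and 33, 344, 251 and 93 without origanifolium 38 and 39, 444, 317 and 127 without molle 22 and 25, and 270, 185 and 85 without molle 27 and 29. Limma voom, other scalings, filterByExpr, a robust fit and sums by gene name kept each count within 1.5 times. Fewer libraries enter some of these fits. The cause of these changes was not tested.

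With at least 1 CPM in 4 libraries, 114 clusters were at 0 in origanifolium and 102 at 0 in molle. Without 1 library these numbers ran from 220 to 311 and from 243 to 414. With DESeq2 the share of calls whose andalusicum and marifolium difference had the same sign was 63.0%, and 13 gene names had opposite calls. The excess of the distance between taxa was 0.515 with a prior count of 0.5, 0.186 over clusters with 10 or more counts in all 8 libraries, and 0.394 to 0.434 without 1 library, with the same exact permutation p of 0.0286. On TMM-scaled CPM, also chosen after seeing the data, molle libraries lay above all others in 2679 clusters and origanifolium libraries in 2911. Summing the libraries of a code leaves 4 and ended the call of all 24 described clusters. No described cluster changed direction under the alternatives that were run. No paired analysis was possible because no library number occurs in both taxa.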

Other observations

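Of the 5912 clusters with 0 counts in origanifolium and 10 or more in molle, and the 11452 of the reverse, tested or not, 3675 and 5467 had counts under 1 title code alone. Both libraries of a code had 10 or more counts, and the other six libraries 0, in 161 clusters for molle 22 and 25, 196 for molle 27 and 29, 194 for origanifolium 31 and 33 and 170 for origanifolium 38 and 39.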
